A study of Mus musculus with 20 samples.

Results

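The 36 genes described here encode aminoacyl-tRNA synthetases, the enzymes that join each amino acid to its transfer RNA. They were taken by gene symbol, in the older nomenclature of the count table, and all 36 were found among the 24421 symbols of that table: 20 genes of enzymes of the cytosol and 16 of enzymes of the mitochondrion. The symbols were chosen for their function and not for their values, but with other results of these libraries known. The study compared kidneys of mice that lose Fh1, the gene of the mitochondrial enzyme fumarate hydratase, with kidneys of littermates that keep it. Fh1-/- mice carried an Fh1 allele with loxP sites around exons 3 and 4 on both chromosomes, and Fh1+/+ mice carried none. Both genotypes carried a Cre recombinase fused to a tamoxifen-responsive receptor domain (CreERT2) under the ubiquitous Rosa26 promoter, so that recombination is not limited to a kidney cell type. Both genotypes also received tamoxifen, 3 intraperitoneal injections of 2 mg in corn oil on alternate days. Adult mice of 10 to 12 weeks (listed as 12 weeks for every sample here), of both sexes and of mixed C57BL/6 and 129/SvJ background, were used. Kidneys were collected at day 5 or day 10 after induction, and RNA-seq gave 5 libraries in each of the 4 groups. The labels number the libraries of a group without naming animals, and what the p-values weigh is library-to-library spread, which may be technical. Total counts ranged from 16654829 to 25001294 per library, with a median of 18547503.

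Apart from the Eprs protein, which charges glutamate and proline tRNAs, each synthetase recognises a single amino acid and its matching transfer RNAs. Synthetases thereby set which amino acid the ribosome inserts at a codon. Cytosolic and mitochondrial protein synthesis use separate sets of enzymes, most of them from separate nuclear genes whose mitochondrial members carry a trailing 2 in the symbol. Kars, Gars and Qars are exceptions, since the Kars and Gars genes give both a cytosolic and a mitochondrial form, and mitochondria charge their glutamine tRNA by another route. In mammals, 8 of the cytosolic genes listed here (Eprs, Iars, Lars, Mars, Qars, Rars, Kars and Dars) encode the synthetases of the multi-synthetase complex, which holds them together on non-catalytic scaffold proteins. When an amino acid runs short, uncharged transfer RNA activates the kinase GCN2 (gene Eif2ak4), phosphorylation of eIF2 follows, and the transcription factor ATF4 is translated. ATF4 is known to induce genes of amino acid synthesis and transport and many cytosolic synthetase genes, by binding C/EBP-ATF response elements in their promoters. Stress of mitochondria also activates ATF4. In the kidney, the proximal tubule is rich in mitochondria and relies on their respiration.

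Because ATF4 target genes share a promoter element, the promoters of the members were searched for its core, TGATGNAA, and for the reverse complement TTNCATCA, over the 250 bases before and the 50 bases after each start site in RefSeq (assembly GRCm38.p6). Promoters were found for 13 cytosolic and 14 mitochondrial members. Lars, Rars, Cars, Hars, Nars, Vars, Wars, Hars2 and Pars2 were not matched. The core was present in 5 of the 13 cytosolic promoters (38.5%) and in 0 of the 14 mitochondrial promoters, against 1219 of 27025 genes in the table (4.51%). Among 25 matched genes of the amino acid stress response, 7 held it (28.0%). These shares are descriptions, and a match is not evidence that a factor binds there. The windows below show the sequence around the matches in the 5 cytosolic members and, for comparison, in 3 stress response genes, namely Asns (asparagine synthetase, a classic gene of the amino acid response), Trib3 and Chac1. Each is written 5′ to 3′ on the strand of its gene, and capitals mark the core in either orientation.
Iars (chr13:49682111-49682170, plus strand): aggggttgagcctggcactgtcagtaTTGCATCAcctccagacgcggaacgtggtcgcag
Gars (chr6:55037945-55038004, plus strand): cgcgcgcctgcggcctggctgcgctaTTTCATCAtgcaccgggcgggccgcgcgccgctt
Tars (chr15:11399640-11399699, minus strand): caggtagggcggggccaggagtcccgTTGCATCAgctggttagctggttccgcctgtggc
Yars (chr4:129189880-129189939, plus strand): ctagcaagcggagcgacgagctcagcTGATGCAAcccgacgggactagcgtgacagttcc
Aars (chr8:111033704-111033884, plus strand): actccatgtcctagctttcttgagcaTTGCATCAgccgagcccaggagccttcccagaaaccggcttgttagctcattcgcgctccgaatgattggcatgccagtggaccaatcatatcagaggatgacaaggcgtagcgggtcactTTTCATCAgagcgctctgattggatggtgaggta
Asns (chr6:7693199-7693258, minus strand): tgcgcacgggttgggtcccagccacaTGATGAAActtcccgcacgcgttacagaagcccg
Trib3 (chr2:152344013-152344072, minus strand): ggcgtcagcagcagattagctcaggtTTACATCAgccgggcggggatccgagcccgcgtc
Chac1 (chr2:119351023-119351082, plus strand): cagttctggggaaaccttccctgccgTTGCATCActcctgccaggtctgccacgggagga
The core began at base 7 after the start in Iars, at base 3 in Yars, 15 bases before the start in Tars and 30 bases before it in Gars, and Aars held 2 copies. In Yars, Asns and no other window shown was it in the orientation TGATGNAA.

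Of the libraries as a whole, Fh1 was measured first. Its level in Fh1-/- replicates 1 to 5 was 351, 248, 365, 413 and 360 CPM (counts scaled to a common library size with TMM factors) at day 10 and 222, 216, 243, 232 and 199 CPM at day 5, against 222 to 259 CPM in Fh1+/+ kidneys at day 10 and 216 to 266 CPM at day 5. Reads from exons outside the deleted pair enter this count, which is therefore no check of the genotype labels. Both sexes were present in each group, as read from Y-linked genes, and Fh1-/- day 10 replicates 1, 3 and 5 and Fh1+/+ day 10 replicates 2 and 3 had Y-linked levels under 10 CPM. On the first principal component (42.8% of the variance), Fh1-/- day 10 replicates 1 and 3 lay at 125 and 128 and the other 18 libraries between −31.3 and 30.3. Fits without both of them are given beside the day 10 results below. Markers of the proximal tubule, thick ascending limb, distal nephron, podocytes and endothelium were detected in every group. At day 10 the summed CPM overlapped between Fh1-/- and Fh1+/+ libraries for the thick ascending limb (7030 to 17100 and 5910 to 11800). Umod, which makes up most of that sum, averaged 9230 CPM in Fh1-/- and 6800 CPM in Fh1+/+ kidneys of day 10. The other listed markers of that segment went the other way, with Slc12a1 at 700 and 1480 CPM and Cldn16 at 9.95 and 13.9 CPM. Sums also overlapped for the distal nephron (1780 to 2560 and 1920 to 2730), where 4 of 5 markers were below 0 on the log2 scale (median −0.11). Slc4a1 averaged 31.9 and 78.4 CPM and Aqp2 467 and 345 CPM in Fh1-/- and Fh1+/+ kidneys. The podocyte markers summed to 142 and 137 CPM in Fh1-/- day 10 replicates 1 and 3. They came to 273 to 360 CPM in the other Fh1-/- libraries and 245 to 495 CPM in Fh1+/+ libraries of day 10. The summed CPM of 6 transcripts of injured tubule (Havcr1, Lcn2, Krt20, Spp1, Vcam1 and Sox9) was 134000 and 126000 in Fh1-/- day 10 replicates 1 and 3, between 2720 and 13200 in the other Fh1-/- day 10 libraries and between 832 and 2040 in Fh1+/+ libraries of day 10. The 8 proximal tubule markers summed to 4000 and 4200 CPM in those replicates, 11500 to 15200 CPM in the other Fh1-/- libraries and 12700 to 16600 CPM in Fh1+/+ libraries of day 10. The endothelial markers summed to 67.3 and 69 CPM in replicates 1 and 3, 233 to 295 CPM in the other Fh1-/- libraries and 250 to 456 CPM in Fh1+/+ libraries of day 10, and those of fibroblasts and pericytes to 55.5 and 58, 151 to 301 and 230 to 602 CPM in the same 3 sets of libraries. Of the 8 leukocyte markers tested, 6 were below 0 on the log2 scale, with a median of −0.90, and 5 were lower at an unadjusted p under 0.05. Ptprc averaged 4.66 CPM in Fh1-/- and 12.1 CPM in Fh1+/+ kidneys of day 10, while Cd68 averaged 18.6 and 6.99 CPM and Cd74, which makes up most of the summed leukocyte markers, 353 and 309 CPM. In bulk tissue, fewer cells of a type and less RNA per cell cannot be told apart, and the part of these shifts in the results below was not tested.

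All 36 members were expressed in every group and passed the filter on low counts in every comparison. Levels can be compared between genes only per length, here as median CPM over the 20 libraries per kilobase of the union of annotated exons. On that scale the cytosolic members ranged from 2.85 (Cars) to 29.1 (Sars), with a median of 13.7, and the mitochondrial members from 0.76 (Mars2) to 17.7 (Lars2), with a median of 4.72. Sars, Nars and Gars, of serine, asparagine and glycine, were the most abundant at 29.1, 28.9 and 28.4 CPM per kilobase. The mitochondrial enzymes of leucine (Lars2), isoleucine (Iars2) and arginine (Rars2) were the most abundant of their set, at 17.7, 15.6 and 15 CPM per kilobase. The ranges of both sets overlap, and the order depends on the length used: per kilobase of the longest transcript, Lars2 was first of all members.

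At day 10, the medians of the cytosolic and the mitochondrial members lay on opposite sides of the Fh1+/+ level. Of the 20 cytosolic members, 19 had a log2 fold change (log2FC, Fh1-/- over Fh1+/+, given ± its standard error) above 0, with a median of 0.34 and a range from −0.16 (Dars) to 1.08 (Vars). Of the 16 mitochondrial members, 12 were below 0, with a median of −0.19 and a range from −0.54 (Cars2) to 0.09 (Iars2). Over all 14360 genes tested the median was 0 and 49.9% were above 0. No member passed the study's thresholds (adjusted p under 0.01 and absolute log2 fold change over 0.58) in edgeR's quasi-likelihood test, which 0.0557% of all genes passed, and none passed them with DESeq2, which 5.35% did. At an adjusted p under 0.05 from edgeR with no fold threshold, Cars2 and Hars2 were lower (0.947% of all genes were lower) and no member was higher (1.88% of all genes were higher). At an unadjusted p under 0.05, 10 of 20 cytosolic members were higher and 0 lower, where 15.1% of all genes were higher, and 5 of 16 mitochondrial members were lower and 0 higher, where 11.9% of all genes were lower. With DESeq2 at an adjusted p under 0.05, 5 members were higher (Eprs, Iars, Kars, Qars and Sars) and 4 lower (Aars2, Cars2, Hars2 and Tars2), where 8.47% and 5.72% of all genes were.

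**Figure D1:**
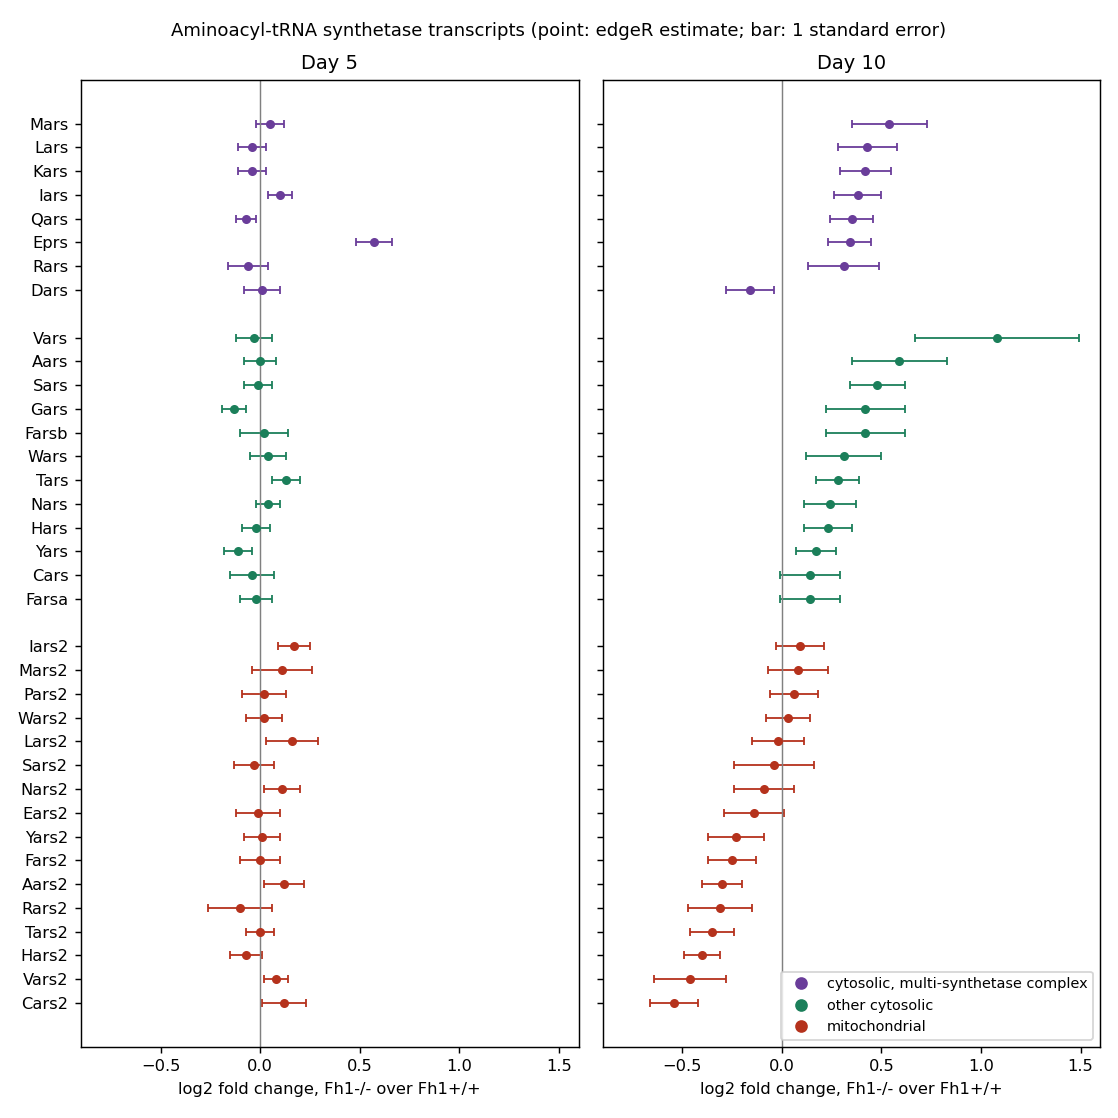
Log2 fold change of each of the 36 members (Fh1-/- over Fh1+/+; point, edgeR estimate; bar, 1 standard error) at day 5 and day 10, with the 8 synthetases of the multi-synthetase complex at the top, the 12 other cytosolic ones in the middle and the 16 mitochondrial ones at the bottom. At day 10 the cytosolic members run from −0.16 to 1.08 and the mitochondrial ones from −0.54 to 0.09, while at day 5 Eprs at 0.57 lies away from the others, which lie between −0.13 and 0.17.

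The cytosolic median was above 0 and the mitochondrial one below 0 with each scaling tried, but their positions moved. With library totals in place of TMM factors the median of all genes moved to −0.17, the cytosolic median to 0.18 (16 of 20 above 0) and the mitochondrial median to −0.34 (16 of 16 below 0). The cytosolic median exceeded the mitochondrial one by 0.53 on the log2 scale with TMM factors and by 0.52 with library totals. Within a library, the ratio of the summed CPM of cytosolic to that of mitochondrial members needs no scaling between libraries. It was 3.48, 2.10, 3.78, 2.68 and 2.39 in Fh1-/- replicates 1 to 5 at day 10, against 1.89 to 2.12 in Fh1+/+ kidneys. Replicates 1, 3, 4 and 5 lay above the whole Fh1+/+ range and replicate 2 within it. At day 5 the ratio was between 1.80 and 1.99 in Fh1-/- and between 1.86 and 2.30 in Fh1+/+ kidneys. By sums, the cytosolic members came to 2127, 1451, 2266, 1684 and 1442 CPM in Fh1-/- replicates 1 to 5 and 1256 to 1441 CPM in Fh1+/+ kidneys of day 10. The mitochondrial members came to 612, 692, 599, 629 and 604 CPM in Fh1-/- and 654 to 732 CPM in Fh1+/+ kidneys. Only replicate 2 of the Fh1-/- libraries reached the Fh1+/+ range of the mitochondrial sum. As a difference of mean log2 CPM, a measure added after seeing the data, the gap between the sets was 1.94, 1.16, 1.95, 1.43 and 1.40 in Fh1-/- replicates 1 to 5 and 1.01 to 1.13 in Fh1+/+ libraries of day 10.

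**Figure D2:**
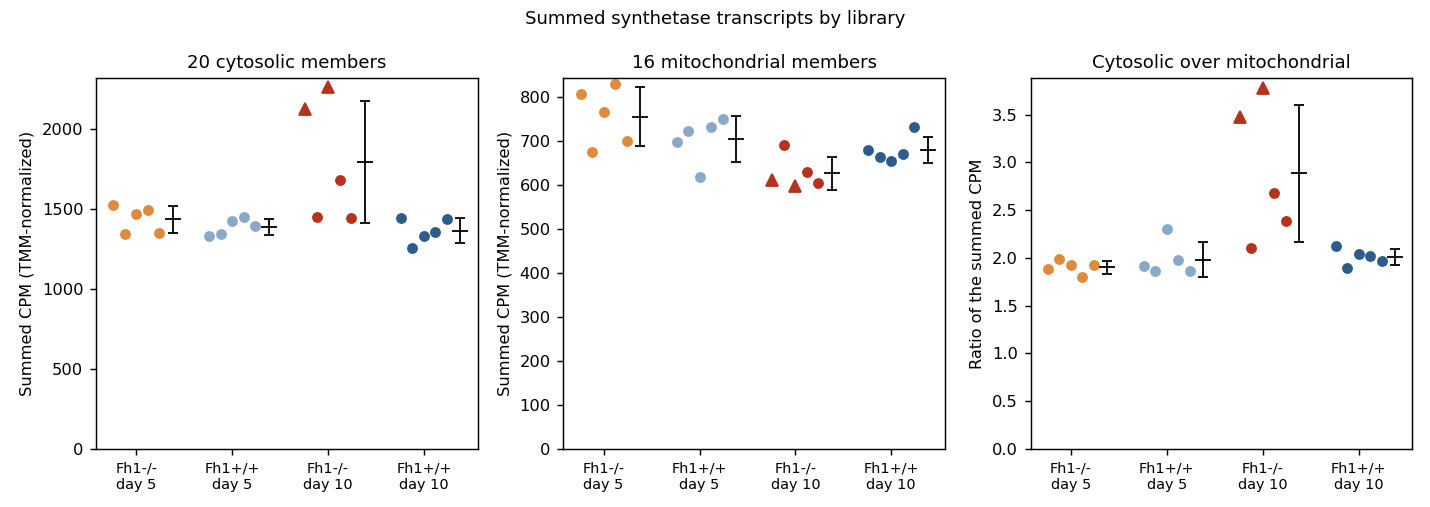
Summed CPM of the 20 cytosolic members, of the 16 mitochondrial members, and their ratio, in each library (points; triangles, Fh1-/- day 10 replicates 1 and 3; black marks, mean and SD of 5). The ratio reaches 3.48 and 3.78 in the libraries shown as triangles and 2.10 to 2.68 in the other Fh1-/- libraries of day 10, against 1.89 to 2.12 in Fh1+/+ libraries.

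For 13 amino acids both a cytosolic and a mitochondrial gene were among the members. With all libraries, the cytosolic log2 fold change at day 10 exceeded the mitochondrial one in all 13 pairs. In 10 pairs the cytosolic gene was above 0 and its partner below 0. The difference was smallest for tryptophan (Wars at 0.31 and Wars2 at 0.03) and widest for valine (Vars at 1.08 and Vars2 at −0.46). For histidine, Hars was at 0.23 and Hars2 at −0.40 although these genes lie head to head on chromosome 18 with overlapping exons on opposite strands. Whether counting used strand is not stated in the sources used here, and if it did not, reads of the shared bases cannot be assigned to either gene. Without both Fh1-/- libraries that lay apart on the first principal component, the order of the pairs was no longer unanimous. Nars (0.06) was then below Nars2 (0.08), and Wars (−0.04) below Wars2 (0.15). In every other pair the cytosolic value was still higher, by little for Mars (0.19) and Mars2 (0.18). Cars, at −0.06 in that fit, was below 0 like Cars2.

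Among the synthetases of the multi-synthetase complex, 7 of 8 were above 0 at day 10, with a median of 0.37, and 6 were higher at an unadjusted p under 0.05 (15.1% of all genes). Kars, which charges lysine tRNA in the cytosol and in mitochondria, was at 144, 101, 160, 119 and 107 CPM in Fh1-/- replicates 1 to 5, against 99.6, 88.7, 96.4, 89.9 and 94.8 CPM in Fh1+/+ replicates. It was the only cytosolic member whose groups did not overlap (3.96% of all genes were higher without overlap), with log2FC 0.42 ± 0.13 (edgeR adjusted p = 0.0934). Qars, the glutamine enzyme, was at 160, 154, 164, 178 and 135 CPM in Fh1-/-, against 138, 106, 130, 119 and 123 CPM in Fh1+/+ kidneys. Its groups met only in Fh1-/- replicate 5 and Fh1+/+ replicate 1, and its log2 fold change was 0.35 (SE 0.11, edgeR adjusted p = 0.0886). Iars, the isoleucine enzyme, was at 65, 51.3, 64.8, 67.1 and 51.2 CPM in Fh1-/-, against 44.8, 48.6, 51.2, 45.3 and 39 CPM in Fh1+/+ kidneys (log2FC 0.38 ± 0.12, edgeR adjusted p = 0.0852). Fh1-/- replicates 1, 3 and 4 stood well above the Fh1+/+ libraries and replicates 2 and 5 at their upper edge. Eprs, whose protein charges both glutamate and proline tRNAs, was at 118, 120, 120, 132 and 123 CPM in Fh1-/-, against 89.3, 96.2, 121, 83.6 and 93.4 CPM in Fh1+/+ kidneys (log2FC 0.34 ± 0.11, edgeR adjusted p = 0.101). The Fh1-/- values were close together, and only Fh1+/+ replicate 3 reached them. Eprs was already at 114 to 158 CPM in Fh1-/- kidneys of day 5, as given below.

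Lars and Mars, the leucine and methionine enzymes, were uneven within the Fh1-/- group. Lars was at 61.7, 46.6, 66.3, 48.6 and 39.9 CPM in Fh1-/-, against 45.8, 37, 34.8, 35.7 and 41.3 CPM in Fh1+/+ kidneys (log2FC 0.43 ± 0.15, edgeR adjusted p = 0.113). Mars was at 94.9, 50.5, 97.1, 60.9 and 55.8 CPM in Fh1-/-, against 47.9, 43.5, 51.1, 49 and 54.7 CPM in Fh1+/+ kidneys (log2FC 0.54 ± 0.19, edgeR adjusted p = 0.118). In both, replicates 1 and 3 were the highest libraries of the group, and without these libraries Lars was at 0.22 and Mars at 0.19. Mars overlaps Ddit3, the stress response factor CHOP, on the opposite strand, and Ddit3 was itself at 34.8, 10.4, 34.6, 13.3 and 15.2 CPM in Fh1-/- and 8.12 to 14.5 CPM in Fh1+/+ kidneys, and the part of shared reads in the Mars value was not tested. Rars (arginine) was at 0.31 (edgeR adjusted p = 0.279). Dars, the aspartate enzyme, was the only cytosolic member below 0, at 61.7 to 84.7 CPM in Fh1-/- and 71.7 to 93.8 CPM in Fh1+/+ kidneys (log2FC −0.16, edgeR adjusted p = 0.376). It was also the only cytosolic member with Fh1-/- replicates 1 and 3 below the other Fh1-/- libraries.

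Of the 12 other cytosolic members, all were above 0, with a median of 0.30, and Vars, Aars, Sars and Tars were higher at an unadjusted p under 0.05 (15.1% of all genes). Vars, the valine enzyme, had the largest log2 fold change of all members. It was at 185, 57.6, 240, 64.9 and 56.4 CPM in Fh1-/- replicates 1 to 5, against 61, 55, 51.8, 62.6 and 54.7 CPM in Fh1+/+ kidneys (log2FC 1.08 ± 0.41, edgeR adjusted p = 0.134). Replicates 1 and 3 were far above every other library, while replicates 2 and 5 lay within the Fh1+/+ range and replicate 4 just above it. Without replicate 3 the log2 fold change of Vars was 0.68, and without both replicates it was 0.08 (edgeR adjusted p = 0.673). Aars, the alanine enzyme, followed a like course, at 207, 106, 245, 121 and 108 CPM in Fh1-/- and 88.2 to 119 CPM in Fh1+/+ kidneys (log2FC 0.59, edgeR adjusted p = 0.157), and was at 0.12 without both. It shares exon bases with Exosc6 on the same strand, and the part of shared reads in the Aars value was not tested. Sars, the serine enzyme, which also charges the tRNA of selenocysteine, was at 200, 163, 238, 208 and 156 CPM in Fh1-/-, against 160, 118, 130, 131 and 148 CPM in Fh1+/+ kidneys (log2FC 0.48 ± 0.14, edgeR adjusted p = 0.0797). Here replicate 4 lay between replicates 1 and 3, and only replicate 5 lay within the Fh1+/+ range. Gars, Farsb, Wars, Tars, Nars, Hars, Yars and Farsa lay between 0.14 and 0.42 (adjusted p between 0.157 and 0.538 from edgeR). Cars, the cysteine enzyme, gave the largest p of the cytosolic set, at 25.9, 16.5, 25.5, 20.9 and 16.5 CPM in Fh1-/-, against 19.2, 17.9, 17.7, 20.3 and 19.8 CPM in Fh1+/+ kidneys (log2FC 0.14, edgeR adjusted p = 0.546). Fh1-/- replicates 2 and 5 lay below and the others above the whole Fh1+/+ range.

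Among the mitochondrial members, 4 had groups that did not overlap, all lower in Fh1-/- kidneys (3.68% of all genes were lower without overlap). Cars2, the mitochondrial cysteine enzyme, was at 20.9, 26.8, 20.3, 18.9 and 23.4 CPM in Fh1-/- replicates 1 to 5 at day 10, against 32.3, 30.2, 28.3, 33.2 and 35.4 CPM in Fh1+/+ kidneys (log2FC −0.54 ± 0.12, edgeR adjusted p = 0.0442). It shares exon bases with Naxd on the opposite strand, and the part of shared reads in the Cars2 value was not tested. Hars2, the histidine enzyme, was at 23.5, 27.4, 22.5, 26.9 and 24 CPM in Fh1-/-, against 31.2, 34.2, 33.7, 31.1 and 33.1 CPM in Fh1+/+ kidneys (log2FC −0.40 ± 0.09, edgeR adjusted p = 0.0483). In both genes each of the 5 Fh1-/- libraries was below each Fh1+/+ library, replicate 2 included. Tars2, the threonine enzyme, was at 22.6, 28, 23.3, 28.4 and 26.2 CPM in Fh1-/-, against 30.2, 30.6, 31.3, 33.7 and 37.8 CPM in Fh1+/+ kidneys (log2FC −0.35 ± 0.11, edgeR adjusted p = 0.0840). Aars2, the alanine enzyme, was at 17, 19.3, 18.7, 17.3 and 18.2 CPM in Fh1-/-, against 20.5, 20.1, 22.9, 21.8 and 25.3 CPM in Fh1+/+ kidneys (log2FC −0.30 ± 0.10, edgeR adjusted p = 0.105). The Aars2 groups were separated by a narrow step. The calls of Cars2 and Hars2 at an adjusted p under 0.05 were not stable: of the fits that left out 1 of the 10 libraries, each gene passed only in the fit without Fh1-/- replicate 2. The highest adjusted p was 0.120 for Cars2, without Fh1+/+ replicate 4, and 0.119 for Hars2, without Fh1+/+ replicate 5, while the log2 fold changes stayed between −0.62 and −0.48 and between −0.44 and −0.36. The count at that threshold was 4 higher (Iars, Kars, Mars and Sars) and 3 lower (Cars2, Hars2 and Vars2) without Fh1-/- replicate 2, where 8.1% and 5.67% of all genes were, and 0 in each other fit without 1 library. It was 10 higher and 5 lower in 1 fit of all 20 libraries, where 12.8% and 8.33% of all genes were, and 0 with no filter on low counts or with the replicate block. With library totals or the Y-linked covariate, Cars2 alone passed.

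Vars2, the valine enzyme of mitochondria, was at 15, 32.8, 20.7, 26.3 and 22.2 CPM in Fh1-/-, against 32.7, 27.4, 31.8, 34.6 and 33.6 CPM in Fh1+/+ kidneys (log2FC −0.46 ± 0.18, edgeR adjusted p = 0.149). Replicate 2 was at the Fh1+/+ level and the other 4 Fh1-/- libraries below it. Rars2, Fars2, Yars2, Ears2, Nars2 and Sars2 lay between −0.31 and −0.04 and Wars2, Pars2, Mars2 and Iars2 between 0.03 and 0.09, none at an unadjusted p under 0.05. Lars2, the mitochondrial leucine enzyme, gave the largest p, at 207, 199, 190, 145 and 195 CPM in Fh1-/-, against 161, 217, 179, 197 and 193 CPM in Fh1+/+ kidneys (log2FC −0.02, edgeR adjusted p = 0.925). Only replicate 4 of the Fh1-/- libraries was outside the Fh1+/+ range.

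**Figure D3:**
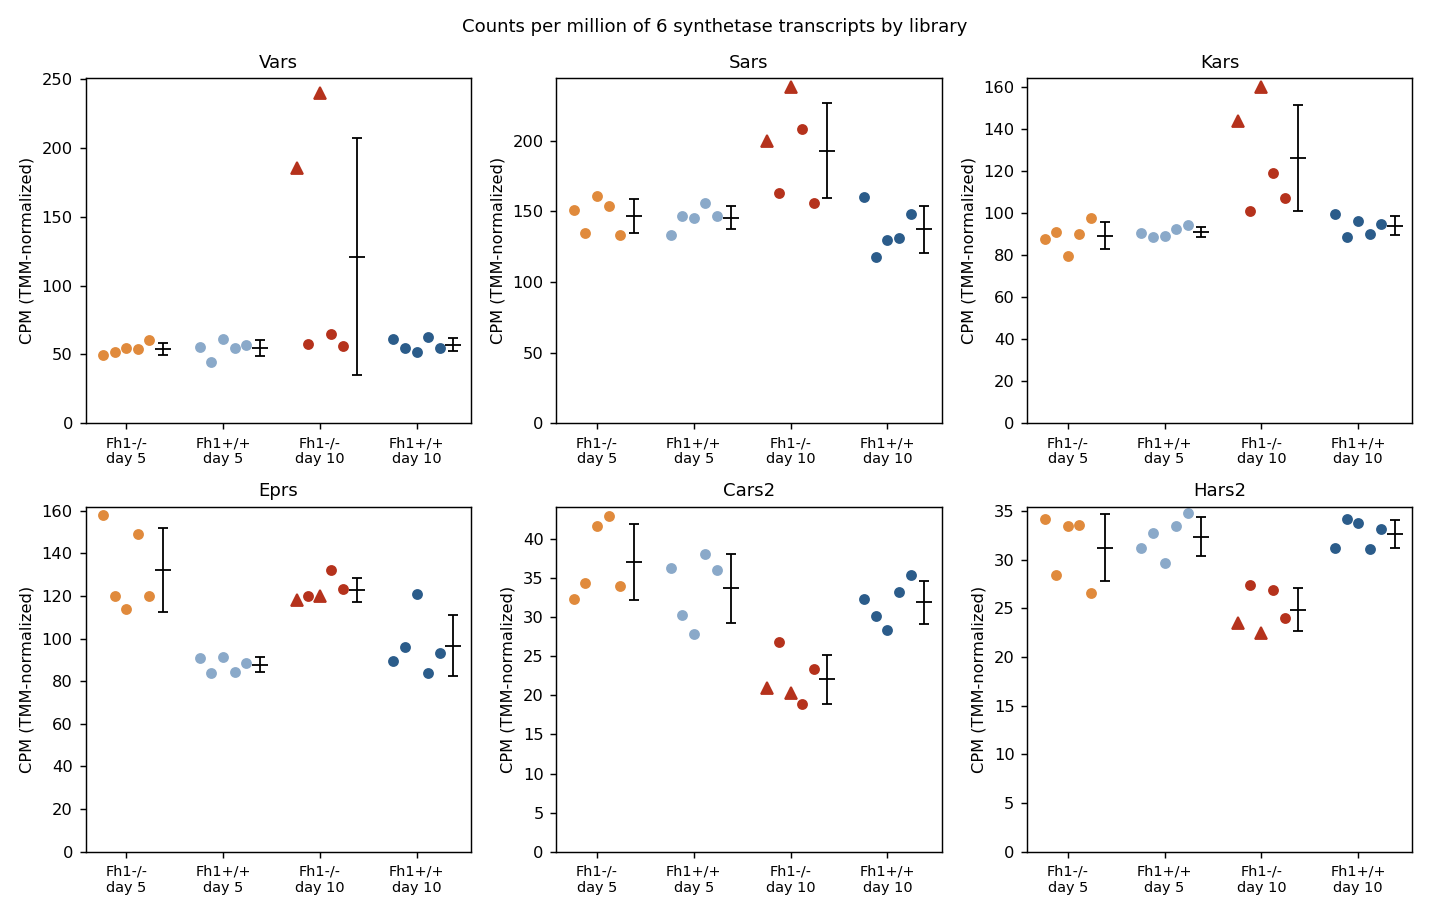
CPM (TMM-normalized) of Vars, Sars, Kars, Eprs, Cars2 and Hars2 in each library by group (points; triangles, Fh1-/- day 10 replicates 1 and 3; black marks, mean and SD of 5). Vars is high only in the libraries shown as triangles (185 and 240 CPM), Cars2 and Hars2 are below every Fh1+/+ library of day 10 in all 5 Fh1-/- libraries, and Eprs is above every Fh1+/+ library of day 5 in all 5 Fh1-/- libraries of day 5 (114 to 158 CPM).

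Fh1-/- replicates 1 and 3 bore differently on the sets. Of the 20 cytosolic members, 15 had both of these libraries above the other 3 Fh1-/- libraries of day 10, 1 had both below and 4 had them among the others (Eprs, Iars, Qars and Sars). Of the 16 mitochondrial members, 1 had both above (Sars2), 7 both below and 8 among the others. Without both libraries, the cytosolic median was 0.11 (16 of 20 above 0) and the mitochondrial median −0.16 (11 of 16 below 0), and no member passed an adjusted p of 0.05 from edgeR. At an unadjusted p under 0.05, 5 cytosolic members were higher, where 10.8% of all genes were in this fit, and 5 mitochondrial members lower, where 8.33% were. Among the cytosolic members, the highest values without both were those of Eprs (0.38), Sars (0.37), Qars (0.35), Iars (0.32) and Kars (0.23), while Gars was at 0.05, Rars at 0.02 and Wars at −0.04. Among the mitochondrial members, Cars2 was at −0.46, Sars2 at −0.38, Hars2 at −0.31, Rars2 at −0.31 and Aars2 at −0.26. Sars2, at 17.3, 10.5, 19.4, 11.5 and 10.2 CPM in Fh1-/- and 12.5 to 16.8 CPM in Fh1+/+ kidneys, had replicates 1 and 3 above and the others below the Fh1+/+ range. The summed markers of injured tubule and of the proximal tubule given above separate the same libraries.

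**Figure D4:**
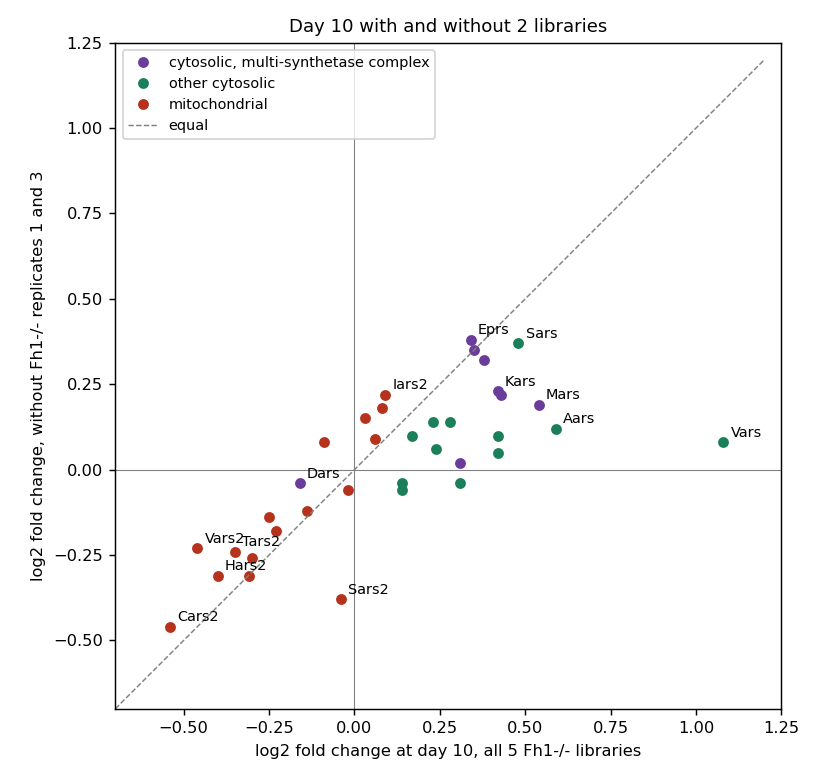
Log2 fold change of each member at day 10 with all 5 Fh1-/- libraries (horizontal axis) and without Fh1-/- replicates 1 and 3 (vertical axis), with the dashed line where both are equal. Vars is at 0.08 without these libraries and at 1.08 with them, while Eprs (0.34 and 0.38), Qars (0.35 in both) and Cars2 (−0.54 and −0.46) stay near the line.

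**Figure D5:**
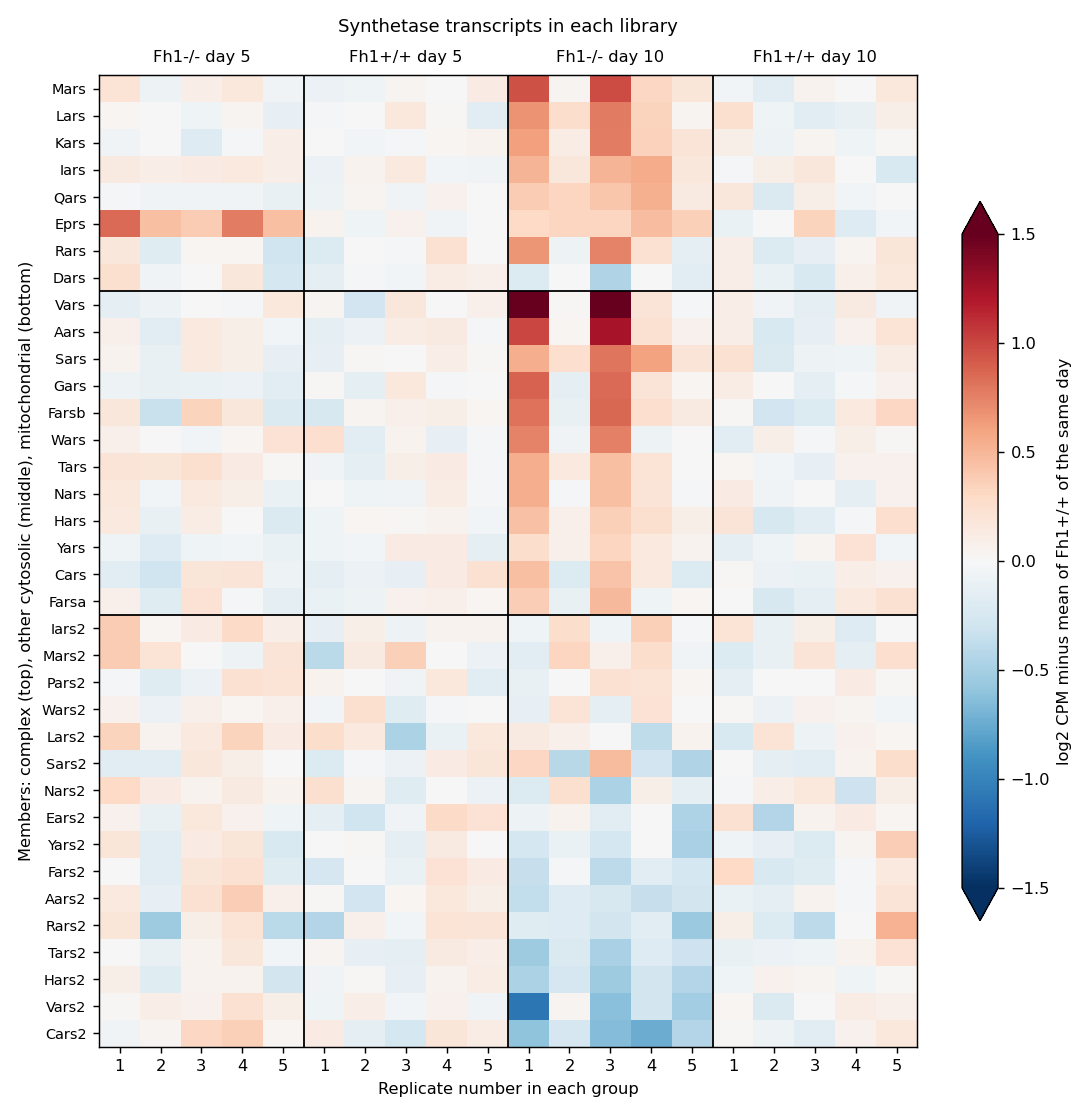
Log2 CPM of the 36 members in each of the 20 libraries, as the difference from the mean of the Fh1+/+ libraries of the same day (red, higher; blue, lower; colours end at 1.5 in either direction), with members in 3 blocks and libraries by group and replicate number. Fh1-/- day 10 replicates 1 and 3 are red over most cytosolic members, the lower mitochondrial rows are blue over most Fh1-/- libraries of day 10, and at day 5 the row of Eprs stands out.

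At day 5 Eprs was the only synthetase transcript whose groups stood apart. The median log2 fold change was −0.01 for the cytosolic members (9 of 20 above 0) and 0.02 for the mitochondrial members (11 of 16 above 0), beside −0.01 for all 14404 genes tested. No member passed the study's thresholds with edgeR, which 0.0347% of all genes passed. At an unadjusted p under 0.05, 2 members were higher (2.42% of all genes) and 0 lower (2.37% of all genes). DESeq2 called 1 member, Eprs, where it called 0.226% of all genes. Eprs was at 158, 120, 114, 149 and 120 CPM in Fh1-/- replicates 1 to 5, against 90.7, 83.8, 91.3, 84.4 and 88.3 CPM in Fh1+/+ kidneys. All Fh1-/- libraries were above all Fh1+/+ libraries, which held for no other member in either direction (0.903% of all genes did not overlap). Its log2 fold change was 0.57 (SE 0.09, unadjusted p = 7.9e-05, edgeR adjusted p = 0.0709) and 0.58 with DESeq2 (adjusted p = 3.7e-05). Over the fits without 1 library, chosen after seeing the data, the log2 fold change stayed between 0.50 and 0.63 and the adjusted p from edgeR was between 0.0594 and 0.318. The difference was as large in a fit with the Y-linked level as a covariate (0.59, edgeR adjusted p = 0.0261). The genotype difference of Eprs at day 10 minus that at day 5 was −0.25 (SE 0.15, edgeR adjusted p = 0.339).

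The other member with an unadjusted p under 0.05 at day 5 was Iars2, the mitochondrial isoleucine enzyme, at 175, 137, 147, 164 and 144 CPM in Fh1-/-, against 124, 143, 128, 140 and 140 CPM in Fh1+/+ kidneys (log2FC 0.17 ± 0.08, edgeR adjusted p = 1). All Fh1-/- libraries but replicate 2 were above the Fh1+/+ range. Eprs (chr1:185363044-185428360, plus strand, GRCm38) and Iars2 (chr1:185284726-185329396, minus strand) lie close together on chromosome 1, at 9.74 and 9.66 Mb from Fh1. The other members on that chromosome are farther away, and at day 5 Dars (47.18 Mb) was at 0.01, Farsb (97.11 Mb) at 0.02 and Mars2 (120.35 Mb) at 0.11. The loxP-flanked Fh1 allele was present in every Fh1-/- and in no Fh1+/+ mouse. Loss of Fh1 and the chromosome segment around that allele therefore cannot be told apart, at day 5 or at day 10. Iars2 shares exon bases with Rab3gap2 on the opposite strand, while Eprs has no such overlap in the annotation used.

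The genotype difference at day 10 was set against that at day 5 in a fit of all 20 libraries. The difference between the days was above 0 for 18 of 20 cytosolic members (median 0.32) and below 0 for 14 of 16 mitochondrial members (median −0.22), beside a median of −0.01 over 14934 genes. No member passed the study's thresholds with edgeR, which 0.0335% of all genes passed. At an unadjusted p under 0.05, 10 members, all cytosolic, had a larger difference at day 10 (11.8% of all genes), and 5, all mitochondrial, a smaller one (8.4% of all genes). The lowest adjusted p was that of Cars2 (difference −0.67 ± 0.16, edgeR adjusted p = 0.0509), which DESeq2 called (adjusted p = 0.00749, where it called 1.8% of all genes). Qars followed (difference 0.42 ± 0.11, edgeR adjusted p = 0.068). Vars had a difference of 1.1 (SE 0.44, edgeR adjusted p = 0.183). Without Fh1-/- day 10 replicates 1 and 3 the medians were 0.11 and −0.21, so that the mitochondrial value was about the same and the cytosolic one smaller.

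Within Fh1-/- kidneys, day 10 was also compared with day 5 directly, in libraries of separate mice. No member passed the study's thresholds with edgeR, which 0.576% of all genes passed. At an unadjusted p under 0.05, 9 cytosolic members were higher (17.9% of all genes), and 8 mitochondrial members and Dars were lower (14.4% of all genes). DESeq2 called Cars2 and Vars2 lower, where it called 3.48% of all genes lower. At an adjusted p under 0.05 from edgeR, Kars, Lars and Qars were higher (6.52% of all genes) and Aars2, Cars2, Tars2, Vars2 and Yars2 lower (5.09% of all genes). All 3 of the higher genes belong to the multi-synthetase complex, but this did not hold with DESeq2. At that threshold it also had Sars and Vars higher, which are outside the complex, where 9.94% of the 19180 genes with a DESeq2 p-value were higher. The other shares given for DESeq2 are of genes with an adjusted p, which were 15512 in this comparison, so that 9.94% is a low figure beside them. Qars was at 135 to 178 CPM at day 10 and 111 to 118 CPM at day 5 (log2FC 0.45 ± 0.09, edgeR adjusted p = 0.0194). Cars2 was at 18.9 to 26.8 CPM at day 10 and 32.3 to 42.9 CPM at day 5 (log2FC −0.75 ± 0.13, edgeR adjusted p = 0.0115). Of the 10 fits that left out a library, Cars2 passed an adjusted p of 0.05 in 10, Aars2, Qars and Tars2 in 7 (not without Fh1-/- day 5 replicate 1, 3 or 4), Kars and Lars in 2 (without Fh1-/- day 10 replicate 2 or 5), and Vars2 and Yars2 in 1 (without Fh1-/- day 10 replicate 2). The list medians were 0.23 (cytosolic) and −0.24 (mitochondrial), and without Fh1-/- day 10 replicates 1 and 3 they were 0.02 and −0.28, with 1 member (Qars) higher and 4 lower at an adjusted p under 0.05, where 3.95% and 3.3% of all genes were. In Fh1+/+ kidneys the same comparison gave 0 members at an unadjusted p under 0.05, where 3.97% of all genes passed, with medians of −0.02 and −0.06, and 0 members with edgeR or DESeq2 at the study's thresholds, where 0% of all genes passed. The lowest adjusted p of a member was 0.948.

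The genes that work beside the synthetases were taken from lists chosen with earlier results of these data known. Of 15 cytosolic companions (complex scaffolds, elongation factor 1 subunits, tRNA maturation and export, selenocysteine synthesis), 10 were above 0 at day 10 (median 0.07), and 4 higher genes and 1 lower gene of the 15 reached an unadjusted p under 0.05, beside 15.1% and 11.9% of all genes. Without Fh1-/- replicates 1 and 3, a fit chosen for these lists after seeing the data, the median was 0.12, with 3 higher and 1 lower (10.8% and 8.33% of all genes). Aimp1, a scaffold of the multi-synthetase complex, was at 51, 50.7, 45.5, 63.5 and 44.3 CPM in Fh1-/-, against 43, 36.2, 42, 37.7 and 38.1 CPM in Fh1+/+ kidneys, without overlap (log2FC 0.37, edgeR adjusted p = 0.0891). Eef1a1, which carries charged tRNA to the ribosome, was at 2010 to 2710 CPM in Fh1-/- and 1400 to 2080 CPM in Fh1+/+ kidneys (0.54, edgeR adjusted p = 0.0835), and was at 0.43 without both replicates. Eef1b2, a subunit of its exchange factor, was at 311, 191, 309, 211 and 196 CPM in Fh1-/- and 154 to 194 CPM in Fh1+/+ kidneys (0.51, edgeR adjusted p = 0.101). Its replicates 1 and 3 were the highest, replicate 2 was within the Fh1+/+ range, and the value without both was 0.24. Near-identical copies of these elongation factor genes may share reads. Pstk, the kinase of the selenocysteine pathway that acts after Sars, was at 8.38 to 11.6 CPM in Fh1-/- and 11.5 to 15.8 CPM in Fh1+/+ kidneys (−0.52, edgeR adjusted p = 0.0703).

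Of 9 mitochondrial companions, 7 were below 0 at day 10 (median −0.33), with 4 lower and 0 higher past an unadjusted p of 0.05 (11.9% and 15.1% of all genes). Without Fh1-/- replicates 1 and 3 the median was −0.20, with 2 lower and 0 higher (8.33% and 10.8% of all genes). Tufm, the mitochondrial elongation factor Tu, was at 7.55, 15, 9.88, 13.0 and 14.4 CPM in Fh1-/-, against 16.6, 17.5, 17.8, 20 and 22 CPM in Fh1+/+ kidneys, without overlap (−0.65, edgeR adjusted p = 0.0783, and −0.40 without both replicates). Gfm1, the elongation factor G of mitochondria, was at 66.5, 106, 66.9, 82.6 and 76.5 CPM in Fh1-/- and 91 to 126 CPM in Fh1+/+ kidneys (−0.43, edgeR adjusted p = 0.123, and −0.26 without both). Replicate 2 lay within the Fh1+/+ range and the other 4 below it. Mtif2, the mitochondrial initiation factor 2, was at 19, 23.1, 16.6, 23.4 and 19.7 CPM in Fh1-/- and 22.8 to 29.5 CPM in Fh1+/+ kidneys, which overlap (−0.33, edgeR adjusted p = 0.129, and −0.20 without both). Tsfm, the exchange factor of Tufm, was at 24.8 to 37 CPM in Fh1-/- and 30.7 to 46.7 CPM in Fh1+/+ kidneys, which overlap (−0.35, edgeR adjusted p = 0.174).

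The amino acid stress response, to which many cytosolic synthetase genes are known to belong, was described by 27 genes, of which 26 were tested at day 10. Of these, 22 were above 0, with a median of 0.84, and at an unadjusted p under 0.05 there were 19 higher and 1 lower, where 15.1% and 11.9% of all genes were. Without Fh1-/- replicates 1 and 3 the median was 0.20 (18 of 26 above 0), with 10 higher and 1 lower (10.8% and 8.33% of all genes). With all libraries, none passed the study's thresholds with edgeR. DESeq2 called 10 of the 27 listed genes, where it called 3.34% of all genes higher. Its calls include Fgf21, which is not among the 26 tested with edgeR. Psat1, an enzyme of serine synthesis, was at 556, 73.4, 515, 236 and 303 CPM in Fh1-/-, against 24.4, 37.1, 32.7, 39.4 and 18.5 CPM in Fh1+/+ kidneys (log2FC 3.46, edgeR adjusted p = 0.0143, and 2.76, adjusted p = 0.041, without both replicates). Atf4 was at 222, 99.5, 226, 153 and 129 CPM in Fh1-/-, against 88.9, 83.3, 96.5, 93.1 and 103 CPM in Fh1+/+ kidneys (0.83, edgeR adjusted p = 0.064, and 0.47 without both). In both, replicates 1 and 3 were the highest and replicate 2 the lowest of the Fh1-/- libraries, the order also seen in the cytosolic to mitochondrial ratio. Chac1, which degrades glutathione, departed from that order, at 7.98, 0.728, 7.03, 30.6 and 14.2 CPM in Fh1-/- and 0.898 to 2.17 CPM in Fh1+/+ kidneys (2.82, edgeR adjusted p = 0.0624, and 3.16 without both). Trib3, a target and inhibitor of ATF4, was at 14.3, 2.46, 17.1, 2.64 and 1.92 CPM in Fh1-/- and 1.12 to 1.86 CPM in Fh1+/+ kidneys (2.41, edgeR adjusted p = 0.0683, and 0.72 without both). Gdf15, a secreted stress hormone, was at 161, 8.12, 209, 13.6 and 14.2 CPM in Fh1-/- and 4.49 to 9.62 CPM in Fh1+/+ kidneys (3.52, and 0.78 without both). Trib3 and Gdf15 were thus high mainly in replicates 1 and 3, as was Asns, at 39.7, 7.17, 36.7, 5.4 and 7.37 CPM in Fh1-/- and 6.05 to 8.91 CPM in Fh1+/+ kidneys (−0.08 without both). Mthfd2, a mitochondrial enzyme of folate metabolism, was alike in this, at 27, 4.65, 29.1, 5.62 and 3.93 CPM in Fh1-/- and 3.57 to 6.04 CPM in Fh1+/+ kidneys (0.03 without both). Cebpb, a partner of ATF4 on DNA, was at 86.5, 14.3, 82.1, 36.6 and 33.2 CPM in Fh1-/- and 5.58 to 19.1 CPM in Fh1+/+ kidneys (1.85, and 1.02 without both). Ppp1r15a, which directs the dephosphorylation of eIF2, was at 58.8, 20.8, 72.3, 36.4 and 41.5 CPM in Fh1-/- and 16.5 to 25.8 CPM in Fh1+/+ kidneys (1.08, and 0.62 without both). In both, replicate 2 lay within the Fh1+/+ range and the other Fh1-/- libraries above it. Slc3a2, the shared chain of amino acid exchangers, was at 490, 312, 540, 320 and 272 CPM in Fh1-/- and 148 to 279 CPM in Fh1+/+ kidneys (0.92, and 0.58 without both). The adjusted p of Gdf15, Cebpb, Ppp1r15a and Slc3a2 was between 0.064 and 0.0663 from edgeR with all libraries and between 0.175 and 0.207 without both. The gene lower at an unadjusted p under 0.05 was Phgdh, an enzyme of serine synthesis, at 0.771 to 2.49 CPM in Fh1-/- and 1.96 to 8.01 CPM in Fh1+/+ kidneys. The kinase gene Eif2ak4 was at −0.08 (edgeR adjusted p = 0.731). At day 5 the median of the 25 stress response genes tested was −0.07 and 2 were higher at an unadjusted p under 0.05.

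Members with and without the promoter core shown above were not in separate ranges at day 10. The log2 fold change was 0.59 for Aars, 0.42 for Gars, 0.38 for Iars, 0.28 for Tars and 0.17 for Yars, which hold it, and between −0.16 (Dars) and 0.54 (Mars) for the 8 matched cytosolic members that do not. The 14 mitochondrial members without it lay between −0.54 and 0.09.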

How the data were processed

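RNA was taken from snap-frozen kidney, and the authors prepared stranded poly(A) libraries, mapped reads to GRCm38 with STAR 2.6.0c, filtered them with Cutadapt and counted them per gene with Rsubread and GENCODE models. The deposited values are raw counts per gene symbol, not normalized and not pooled; 0 columns were left unmapped. Whether counting used strand is not stated in those sources. Exons of 6 cytosolic and 7 mitochondrial members overlap those of another annotated gene, among them Aars, Cars2, Fars2 and Vars2. The part of shared reads in their values was not tested. Members and lists were chosen with earlier results of these data known. Comparisons used edgeR 4.0.16 under R 4.3.3 (TMM factors, filterByExpr, quasi-likelihood test, Benjamini-Hochberg over all genes tested), with the study's thresholds of an adjusted p of 0.01 and a log2 fold change of 0.58; the code was tested on simulated data. CPM are TMM-normalized, with a prior count of 2 in log2 CPM. Libraries of a group differed by more than sampling noise (chi-square per degree of freedom of 7.49 or more). The lowest value, 7.49, was that of Fh1-/- day 10 replicates 1 and 3, and the other pairs of that group were at 55.9 to 373. Counting error is small at these depths and is included in the spread between libraries.

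Library values or their ranges were given, by rule, for the 8 cytosolic and 5 mitochondrial members with the smallest p at day 10, for the member of each set with the largest p, and for up to 4 genes of each companion list and 8 of the stress response. Aars, Dars, Sars2, Iars2, Ddit3, Asns, Mthfd2, Phgdh, Eif2ak4 and Fgf21 were singled out after their values were seen. Alternatives were DESeq2 1.42.0, RLE factors, library totals, no filter, a stricter filter (1 CPM in 5 libraries), an adjusted or unadjusted p of 0.05 alone, limma-voom (limma 3.58.1) with quality weights, the Y-linked level (above 10 CPM or not) as covariate, the replicate number as block, 1 fit of all 20 libraries, each library left out, and both Fh1-/- day 10 replicates 1 and 3 left out, the last added for the companion and stress response lists after seeing the data. Promoter sequences are from RefSeq (GRCm38.p6) and gene positions from GENCODE for the same build. Protein sequences were not used here, and 1 gene of the mitochondrial companion list is not reported here.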

Additional observations from a re-analysis of the deposited data

Results flagged for a closer look

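In 144 groups of 5 libraries (36 members in 4 groups), 3 libraries lay apart from the other 4 by Dixon's criterion, which chance meets in about 1 group of 20. Lars2 was at 145 CPM in its lowest Fh1-/- library of day 10, with the next at 190 CPM. Qars was at 111 CPM in its lowest Fh1-/- library of day 5, with the next at 116 CPM. Farsb was at 54.3 CPM in its lowest Fh1+/+ library of day 5, with the next at 65 CPM.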

How the results depend on the processing

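At the study's thresholds the count of members called was 0 in each comparison and stayed 0 under every alternative except the following. At day 10 it was 2 at an adjusted p under 0.05 alone and 15 at an unadjusted p under 0.05. At day 5 it was 1 with DESeq2 and 2 at an unadjusted p. For the difference between the days it was 1 with DESeq2, 15 at an unadjusted p and 0 to 1 over the 20 fits without 1 library (1 without Fh1-/- day 10 replicate 2). For Fh1-/- kidneys between the days it was 2 with DESeq2, 2 with limma-voom, 1 with the Y-linked covariate, 8 at an adjusted p under 0.05, 18 at an unadjusted p and 0 to 2 over the 10 fits without 1 library (2 without Fh1-/- day 10 replicate 2). Eprs at day 5 passed the thresholds with DESeq2 (log2 fold change 0.58). The sign of Cars at day 10 turned with library totals (−0.05), limma-voom (−0.04) and without both Fh1-/- replicates 1 and 3 (−0.06), and Lars2, at −0.08 to 0.06 when 1 library was left out, turned without Fh1-/- replicate 4 (0.06) or Fh1+/+ replicate 2 (0.03). The cause was not tested. The day 10 cytosolic median was 0.11 without both replicates, the mitochondrial median −0.34 with library totals, which moved the median of all genes to −0.17. Leaving out 1 library gave medians of 0.30 to 0.42 and −0.25 to −0.11, with −0.11 without Fh1-/- replicate 5. Replicate numbers did not pair the libraries: deviations of same-numbered libraries of both genotypes correlated between −0.27 and 0.09 at day 10 and between −0.51 and 0.33 at day 5, and 1 of 5 libraries correlated best with its own number at each day. With the replicate block the count of members called was 0 in every comparison, and the adjusted p of Eprs at day 5 was 0.504.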

Other observations

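Synthetases fall into a pair of unrelated structural classes, each with its own catalytic fold, and the day 10 values did not follow them. Class I members had a median log2 fold change of 0.14 (13 of 19 above 0) and class II members a median of 0.14 (10 of 17 above 0), each class holding both cytosolic and mitochondrial genes. Eprs, whose protein charges both glutamate and proline tRNAs, was counted in class I only. Fgf21, a hormone gene of the stress response that did not pass the filter on low counts, was at 3.19, 0.056, 4.62, 0.936 and 0.268 CPM in Fh1-/- replicates 1 to 5 at day 10 and at 0 in each of the 5 Fh1+/+ libraries of day 10.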
